A study of Sesamum indicum with 6 samples.

Results

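Genes of flavonoid and anthocyanin metabolism were followed in sesame, Sesamum indicum, in young leaves sampled from seedlings aged 17 days that differed at a leaf-shape locus. A gene was a member when its product name in the authors' deposited annotated table held, in any case, chalcone, flavonol, flavone, flavanone, flavonoid, anthocyanidin, anthocyanin or TRANSPARENT TESTA. This rule used no measured value and took 73 of the 20661 genes with a product name, in a count table of 25762 genes. The seedlings were recombinant inbred lines homozygous on linkage group 8 for the SiCD_A allele, with the wild-type form of the leaf polarity gene KAN1, or for the SiCD_B allele, with its mutant form kan1. Growth was under 12 h of light, at 28 °C in the day and at 22 °C in the night for both groups. Each group had 19 plants and 3 pools, each of RNA from 9 plants picked at random. As 27 places were filled from 19 plants, pools of a group overlap in plants, and p-values measure only the spread between such pools. Differences at other loci between the plant sets cannot be told apart from the allele.

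Flavonoids are built from a phenylpropanoid unit and malonyl-CoA. Chalcone synthase joins them, chalcone isomerase closes the ring, and hydroxylases add oxygen to it. The pathway then splits: flavonol synthase gives flavonols, dihydroflavonol reductase and leucoanthocyanidin dioxygenase lead to coloured anthocyanidins, and anthocyanidin reductase diverts these to the flavan-3-ol units of condensed tannins. Glycosyl-, acyl- and methyltransferases decorate the products, which in leaves are known as screens against ultraviolet light and as pigments, held largely in the epidermis. Product names rest on similarity. Isoflavones are known mainly from legumes, so the isoflavone names here mark related enzymes and not a known product of sesame.

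Total counts were 56123250 to 82165322 per pool, and SiCD_A pool 3 was the shallowest. Levels are given in CPM, counts per 1000000 counts with TMM scaling, which are not corrected for gene length and are therefore not compared between genes. KAN1 itself went from 22.7 ± 2.30 CPM with the wild-type allele to 54.4 ± 1.88 CPM with the mutant allele (SD, n = 3), and the labels give no sequence of kan1 against which this could check them. Leaf mesophyll markers, 20 genes of chlorophyll-binding proteins and the Rubisco small subunit, summed to 32804, 31558 and 21764 CPM in the SiCD_A pools and to 25833, 23555 and 21944 CPM in the SiCD_B pools. SiCD_A pool 3 was thus the lowest of all, and it also stood apart from the other pools on the second principal component of all genes. Of these markers 1 was higher and 3 were lower with all pools, 1 higher and 16 lower without SiCD_A pool 3, and 1 higher and 0 or 1 lower without any single other pool. The number lower with all pools also depended on the method, with 2 in limma-voom, 6 in the DESeq2 Wald test and 11 with pool number as a block. Leaving out SiCD_A pool 3 left the flavonoid and anthocyanin genes at 9 higher and 7 lower, from 9 and 9. It left 28.3% of all tested genes called, from 30.6%. The 5 flower identity genes summed to at most 4.70 CPM. Epidermal homeobox genes other than members were higher in SiCD_B for 5 of 7 and lower for 0, with a summed level of 323 to 356 CPM in SiCD_A and 443 to 502 CPM in SiCD_B. The 10 markers of dividing cells, most of them histone H3.2 genes and the rest B-type cyclins, were higher for 8 and lower for 0 (477 to 549 against 816 to 865 CPM). Histone genes made up most of this sum. Of the cyclins, LOC105175106 had a log2 fold change of 0.52 (adjusted p = 0.00101) and LOC105177739 of -0.02 (adjusted p = 0.771). LOC105167492 had 0.17 (adjusted p = 0.0426), a call lost under several settings. All 6 SIEVE ELEMENT OCCLUSION genes of the phloem were lower (184 to 209 against 142 to 166 CPM). These marker counts stand beside 16.5% of all tested genes higher and 14.1% lower. In such bulk leaf RNA, fewer cells of a type and less RNA per cell cannot be told apart, and the part of these cell types in the results below was not tested.

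The flavonoid and anthocyanin genes did not move as a block. Of the 73 members, 66 had enough counts to be tested, and 18 of these (27.3%) differed between groups at an adjusted p below 0.05 in edgeR's quasi-likelihood test, against 30.6% of all 21009 tested genes. The calls split evenly, with 9 members higher in SiCD_B (13.6%, against 16.5% of all genes) and 9 lower (13.6%, against 14.1%). The median log2 fold change, SiCD_B minus SiCD_A, was -0.03 over the tested members and 0.01 over all tested genes, and the median of its size was 0.21 and 0.17. For 24 of the 66 members (36.4%) all pools of a group lay on one side of the other group's, against 48.4% among all tested genes. A change of at least 2-fold was called for 1 member, LOC105156703, and for 2.93% of all tested genes. These shares lie near or under the background, so what follows concerns single genes and branches and not a shift of the pathway.

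**Figure D1:**
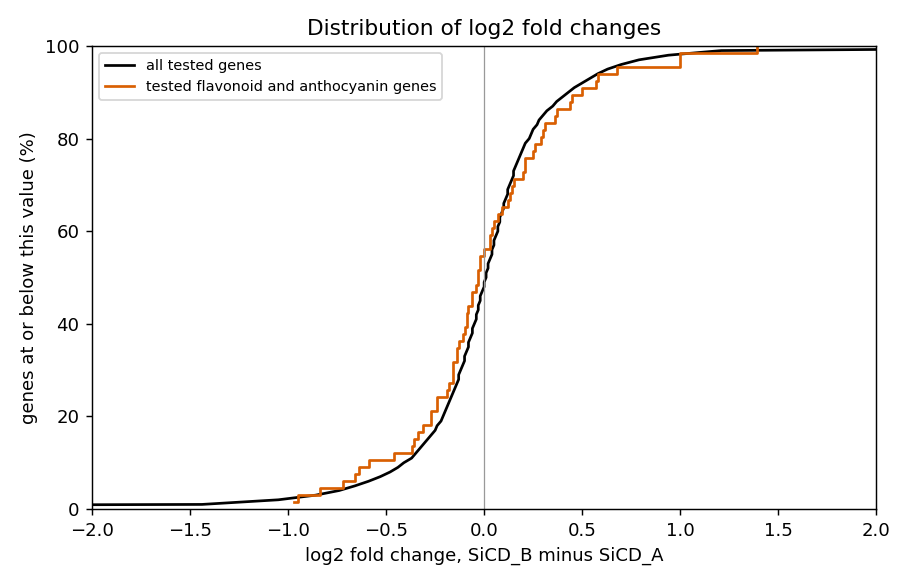
Cumulative share of genes (y axis, %) by log2 fold change, SiCD_B minus SiCD_A (x axis), for all 21009 tested genes (black) and for the 66 tested flavonoid and anthocyanin genes (orange). Both curves cross the middle near 0, with medians of 0.01 and -0.03.

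Of the 73 members, 19 (26.0%) had an adjusted p below 0.05 in the authors' deposited table, 9 of them higher and 10 lower, against 31.7% of all genes with such a p there. The 18 members called in the edgeR test were all among these 19. The calls depended on single pools. Without SiCD_B pool 2 the numbers fell to 4 higher and 3 lower, without SiCD_B pool 3 to 5 higher and 6 lower, and without SiCD_A pool 1 to 6 higher and 4 lower. The share of all tested genes called fell as well, from 30.6% to 18.5%, 21.3% and 21.4% in the same order, so this loss is not particular to the members. Under each of 14 other settings (scaling, filter, test, pool number as a block, and each pool left out), 7 members kept their call: LOC105160956, LOC105160506, LOC105169561, LOC105173484, LOC105174808, LOC105176179 and LOC105178642. With library size as the only scaling, 67.5% of all called genes were higher in SiCD_B instead of 53.8%, and the members called were 10 higher and 7 lower.

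**Figure D2:**
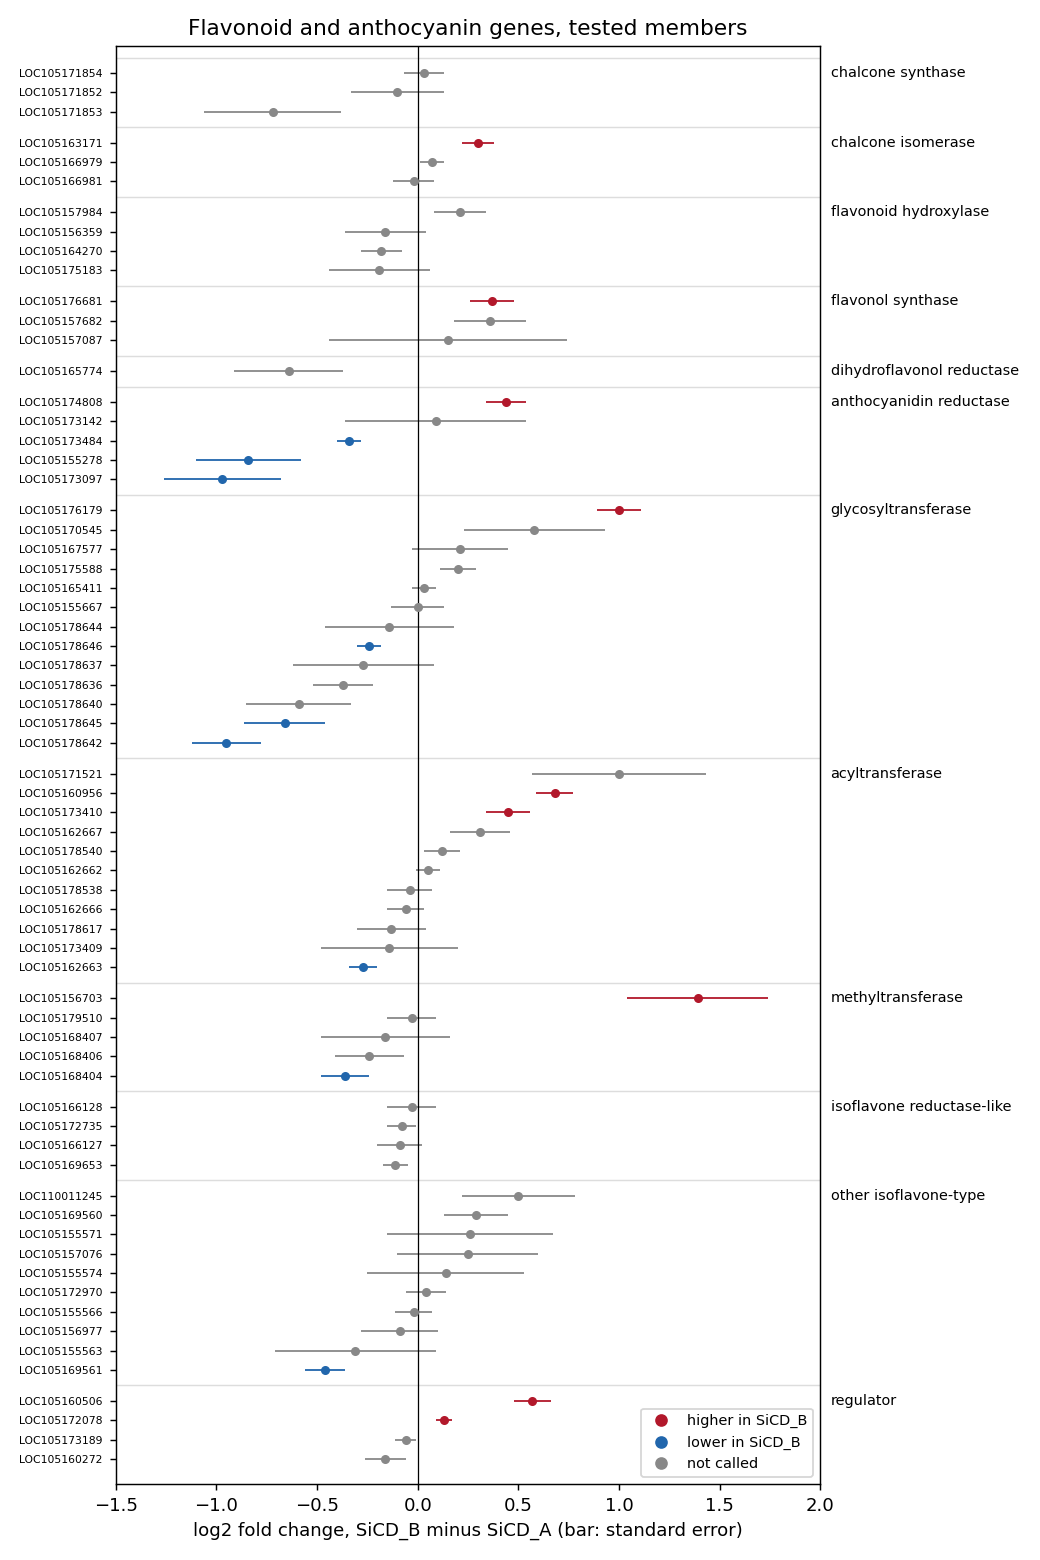
Log2 fold change, SiCD_B minus SiCD_A (x axis), of the 66 tested members, one line per gene grouped by the role in its product name; points are estimates from 3 pools per group and bars are standard errors. Red points are the 9 members higher in SiCD_B, blue the 9 lower and grey the 48 not called; most roles hold points on both sides of 0.

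At the entry to the pathway, none of the 3 tested chalcone synthase genes passed in edgeR, DESeq2 or limma-voom, and 0 had an unadjusted p below 0.05. The gene LOC105171854 (linkage group 10, coding segment 3699572 to 3699749) carried 98.5% to 99.1% of the counts of the 4 chalcone synthase genes in every pool. It stood at 254, 246 and 199.7 CPM in the SiCD_A pools and at 251, 219 and 244 CPM in the SiCD_B pools. The groups overlapped, and SiCD_A pool 3 was the lowest of all. Its log2 fold change was 0.03 (SE 0.10, 95% interval -0.19 to 0.25, adjusted p = 0.84). Its neighbours LOC105171852 and LOC105171853 on the same linkage group, near 1 to 2 CPM, had log2 fold changes of -0.10 (adjusted p = 0.767) and -0.72 (SE 0.34, adjusted p = 0.146). Without SiCD_B pool 3, LOC105171853 passed (adjusted p = 0.0485). The chalcone synthase J-like gene LOC105157017 had 25 counts in SiCD_A and 13 in SiCD_B and was not tested.

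Chalcone isomerase was modestly higher with the mutant allele. LOC105163171 (linkage group 6, 1047326 to 1047431) had 38.6, 43.3 and 34.9 CPM in the SiCD_A pools and 45.6, 47.9 and 50.5 CPM in the SiCD_B pools, so each mutant-allele pool lay above each wild-type pool. It rose 1.23-fold, or by 0.30 on the log2 scale (SE 0.08, adjusted p = 0.0194). It did not pass with SiCD_A pool 1 (0.0707) or SiCD_B pool 2 (0.064) or 3 (0.0701) left out. Both genes named chalcone isomerase 3, of a type that in Arabidopsis assists chalcone synthesis without closing the ring itself, did not pass. LOC105166979 went from 108 ± 4.52 to 113 ± 8.43 CPM, with an interval of the log2 fold change from -0.07 to 0.20. For LOC105166981 the interval was -0.24 to 0.20.

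None of the 4 tested ring hydroxylases passed in edgeR, DESeq2 or limma-voom, and 0 had an unadjusted p below 0.05. Flavonoid 3'-monooxygenase, which adds the second hydroxyl group of the side ring, was best covered in LOC105157984. Its levels were 37.9, 35.3 and 27.6 CPM with the wild-type allele and 41.8, 34.6 and 40.1 CPM with the mutant allele, and the groups overlapped (log2 fold change 0.21, SE 0.13, interval -0.09 to 0.51, adjusted p = 0.254). The flavonoid 3',5'-hydroxylase 1-like gene LOC105156359 and the monooxygenase-like genes LOC105164270 and LOC105175183 had log2 fold changes of -0.16, -0.18 and -0.19. The other 2 genes of this kind were too thinly covered for the edgeR test.

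The first of these, LOC105157292 (linkage group 3, 5240924 to 5241817), is also named flavonoid 3'-monooxygenase and was singled out after its values were seen. It had 15, 4 and 6 counts in the SiCD_A pools and 0, 0 and 1 in the SiCD_B pools. Per total count this is 28.6-fold more in SiCD_A, with an exact 95% counting interval of 4.69 to 1180 that ignores the spread between pools. The authors' deposited table gives it a log2 fold change of -4.79 with an adjusted p of 0.011. It is the member called there that the edgeR test did not call, as the filter on counts kept it from being tested. With no filter, edgeR called 1 member that the main test had not. The other thinly covered gene of this kind, LOC110011731, had 5, 7 and 3 counts against 1, 3 and 3.

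The best covered gene named for flavonol synthase, the step into flavonols, was higher. Its name also covers flavanone 3-hydroxylase, so its rise cannot be assigned to the flavonol step alone. LOC105176681, annotated as flavonol synthase/flavanone 3-hydroxylase (linkage group 2, 1355228 to 1355700), had 11.8, 13.5 and 10.3 CPM in SiCD_A against 14.5, 14.6 and 16.9 CPM in SiCD_B. The groups did not overlap, and it rose 1.29-fold (log2 fold change 0.37, SE 0.11, adjusted p = 0.0269). This call was lost with SiCD_A pool 1 (0.086) or 3 (0.0551) or SiCD_B pool 2 (0.0568) or 3 (0.0981) left out. Flavonol synthase 4 (LOC105157682) had a similar estimate of 0.36 (SE 0.18) but overlapping pools and an adjusted p of 0.161. LOC105157087, near 0.1 CPM, had 0.15 (SE 0.59), and LOC105155397, with 29 and 22 counts over the groups, was not tested.

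The members named for the reductase and dioxygenase that lead to anthocyanidins had few counts. Genes for these steps without such a product name would not be seen. The single dihydroflavonol 4-reductase among the members, LOC105165774, whose record is marked as a low-quality protein, had 70, 67 and 64 counts in SiCD_A and 67, 44 and 42 in SiCD_B, or 1.01 ± 0.112 and 0.647 ± 0.189 CPM (SD, n = 3). Scaled for depth, the pools did not overlap, but the log2 fold change of -0.64 (SE 0.27) did not pass (adjusted p = 0.0975), except without SiCD_B pool 1 (0.0365). Leucoanthocyanidin dioxygenase-like LOC105156784 had 22 counts in each group and was not tested. Its ratio per total count, SiCD_A over SiCD_B, was 1.15 with an exact 95% counting interval of 0.605 to 2.17.

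Of the 5 tested genes of anthocyanidin reductase, the branch to flavan-3-ols, 4 were called, beside 30.6% of all tested genes, and they went both ways. Roles were compared after their values were seen. Only the calls of LOC105173484 and LOC105174808, which have opposite signs, held under all settings. The best covered, LOC105173484 (linkage group 1, 18186431 to 18186724), had 127, 119 and 138 CPM in the SiCD_A pools and 104, 99.6 and 101 CPM in the SiCD_B pools. All SiCD_B pools lay below all SiCD_A pools, and its fall (log2 fold change -0.34, SE 0.06, adjusted p = 0.00266) was called under all settings. The putative anthocyanidin reductase LOC105174808 (linkage group 12, 495437 to 495566) went the other way, from 7.36, 7.82 and 7.90 CPM to 9.19, 11.6 and 10.5 CPM. It rose 1.35-fold (log2 fold change 0.44, SE 0.10, adjusted p = 0.0107), also under all settings.

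The other reductases were near 1 CPM. LOC105173097 (linkage group 11) fell from 1.22 ± 0.245 to 0.62 ± 0.201 CPM (log2 fold change -0.97, SE 0.29, adjusted p = 0.0337), and the call was lost with SiCD_A pool 1 (0.111) or 3 (0.0571) or SiCD_B pool 2 (0.105) or 3 (0.1) left out. Its neighbour LOC105173142, which starts 601521 on the same linkage group, had 1.80 ± 0.611 and 1.93 ± 1.10 CPM, with an interval of the log2 fold change from -0.97 to 1.15. LOC105155278, on a sequence without a linkage group, fell from 0.758 ± 0.103 to 0.424 ± 0.0483 CPM (log2 fold change -0.84, SE 0.26, adjusted p = 0.036). Of the 6 pools, leaving out any but SiCD_A pool 3 ended the call (0.0706 to 0.125).

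**Figure D3:**
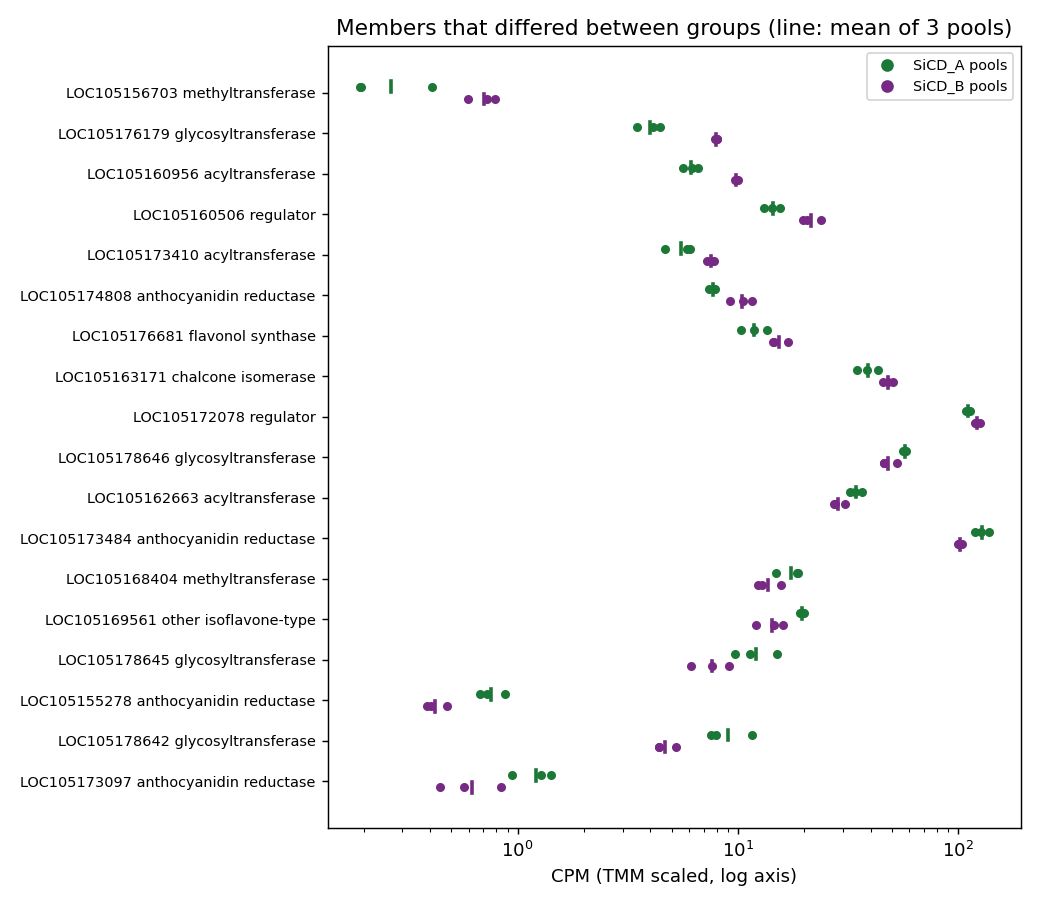
CPM (x axis, log scale) of the 18 members that differed between groups, ordered by log2 fold change; each point is a pool and each vertical line the mean of 3 pools. The groups are separate for all of them except the methyltransferase gene LOC105168404, whose highest SiCD_B pool (15.7 CPM) exceeds its lowest SiCD_A pool (14.9 CPM).

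Glycosyltransferases, which attach sugars and so make the pigments and flavonols soluble, were the largest role, with 15 members, of which 13 were tested, 1 was higher and 3 were lower. The 3 that fell all belong to a row of 8 anthocyanidin 3-O-glucosyltransferase 2 genes on linkage group 16, between 2627403 and 2915596, a span of 288 kb. All 7 tested genes of this row had negative log2 fold changes, from -0.14 to -0.95, beside a median of 0.01 over all tested genes. Summed over the row, the SiCD_A pools had 83.4, 83.5 and 91.3 CPM and the SiCD_B pools 71.2, 63.3 and 65.3 CPM. Each SiCD_B pool thus lay below each SiCD_A pool, while pools of the groups were separate for 48.4% of all tested genes. LOC105178646 made up most of this sum. The row was singled out after its values were seen, and of its calls only that of LOC105178642 held under all settings.

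Within the row, LOC105178642 (2771119 to 2772546) changed most. It had 7.98, 7.53 and 11.6 CPM in SiCD_A and 5.23, 4.38 and 4.38 CPM in SiCD_B, and fell by 0.95 on the log2 scale (SE 0.17, adjusted p = 0.00438) under all settings. SiCD_A pool 3 was the highest pool for this gene and also for LOC105178645 (2882216 to 2883775), which had 11.4, 9.66 and 15.1 CPM against 6.13, 7.65 and 9.12 CPM. LOC105178645 fell by 0.66 on the log2 scale (SE 0.20, adjusted p = 0.0442). It did not pass when SiCD_A pool 1 (0.0863) or 3 (0.065) or SiCD_B pool 1 (0.094) or 2 (0.125) was left out, with library size alone (0.0702) or with no filter (0.0517).

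LOC105178646 (2914169 to 2915596), which took most of the row's counts, fell least among the called genes. It went from 57.1, 58.1 and 56.1 CPM to 52.6, 46.0 and 46.1 CPM (log2 fold change -0.24, SE 0.06, adjusted p = 0.0137). It no longer passed when SiCD_B pool 2 (0.059) or 3 (0.0559) was left out. Among the rest, LOC105178636 had 5.38 ± 0.65 and 4.16 ± 0.752 CPM (adjusted p = 0.0968, and 0.0308 without SiCD_B pool 1), and LOC105178640 had 0.922 ± 0.200 and 0.608 ± 0.085 CPM (adjusted p = 0.116). LOC105178637 and LOC105178644 had estimates of -0.27 and -0.14 with overlapping pools, and LOC105178688 had 30 counts against 12 and was not tested. Genes this alike can share reads, and the sources used here do not say how such reads were counted, so values within the row may not be independent.

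**Figure D4:**
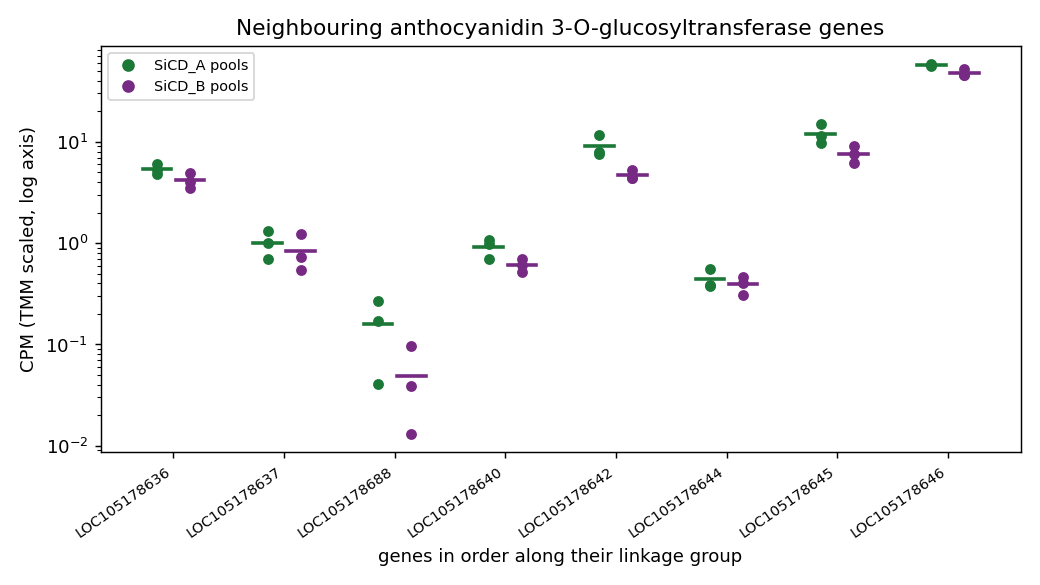
CPM (y axis, log scale) of the 8 neighbouring anthocyanidin 3-O-glucosyltransferase 2 genes in their order along linkage group 16 (x axis); points are pools and horizontal lines the mean of 3 pools. The SiCD_B mean lies below the SiCD_A mean for each gene, with separate groups for LOC105178640, LOC105178642, LOC105178645 and LOC105178646.

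A glucosyltransferase elsewhere moved the other way. Anthocyanidin 3-O-glucosyltransferase 5-like LOC105176179 (linkage group 13, 2672029 to 2673447) had 4.12, 3.48 and 4.42 CPM in SiCD_A and 7.86, 8.04 and 8.07 CPM in SiCD_B. The lowest SiCD_B pool was well above the highest SiCD_A pool, and its rise (log2 fold change 1.00, SE 0.11, adjusted p = 0.000401) had the smallest adjusted p of all members and was called under all settings. The other glucosyltransferases did not pass. They include LOC105165411, named for adding xylose to an anthocyanidin glucoside, at 30.4 ± 1.64 and 31.1 ± 1.67 CPM (interval of the log2 fold change -0.10 to 0.17). LOC105175588, named for adding a further glucose, had 13.3 ± 1.36 and 15.3 ± 1.05 CPM (adjusted p = 0.126, and 0.0479 with library size alone). LOC105155667 had an estimate of 0.00, LOC105167577 of 0.21 and LOC105170545 of 0.58 (SE 0.35). LOC105162857, with 9 and 18 counts, was not tested.

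Of the 11 acyltransferases, which attach acids to the sugars of anthocyanins, 2 were higher and 1 lower. Anthocyanidin 3-O-glucoside 6''-O-acyltransferase LOC105160956 (linkage group 4, 13657909 to 13659294) had 6.59, 6.22 and 5.65 CPM in SiCD_A and 9.90, 9.66 and 10.0 CPM in SiCD_B. With no overlap and little spread, it rose 1.60-fold (log2 fold change 0.68, SE 0.09, adjusted p = 0.000801) under all settings. The malonyltransferase-like gene LOC105173410 (linkage group 11, 6220930 to 6222291) rose from 5.87, 6.04 and 4.65 CPM to 7.80, 7.66 and 7.25 CPM (log2 fold change 0.45, SE 0.11, adjusted p = 0.0173), and the call was lost without SiCD_B pool 2 (0.0594). LOC105162663 (linkage group 5, 15630920 to 15632371), named like LOC105160956, fell from 34.4 ± 2.21 to 28.6 ± 1.84 CPM (log2 fold change -0.27, SE 0.07, adjusted p = 0.0154). That call was lost with SiCD_A pool 1 (0.0576) or SiCD_B pool 2 (0.0655) or 3 (0.0604) left out.

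The 3 acyltransferases next to LOC105162663 on linkage group 5 did not share its fall: coumaroyltransferase 2 (LOC105162662) had a log2 fold change of 0.05 (interval -0.08 to 0.19), LOC105162666 of -0.06 and LOC105162667 of 0.31 (interval -0.02 to 0.64). Over these 4 neighbours the sum went from 77.6 ± 4.45 to 74.1 ± 4.28 CPM, with overlapping pools. The same was true of 3 malonyltransferase genes on linkage group 16, at 59.7 ± 6.19 and 59.0 ± 4.73 CPM in sum. The best covered of them, LOC105178538, had 41.9 ± 5.09 and 40.9 ± 4.42 CPM. LOC105171521 had non-overlapping pools (0.183, 0.411 and 0.781 against 0.800, 0.993 and 0.904 CPM) and a log2 fold change of 1.00 (SE 0.43) that did not pass (adjusted p = 0.107), except without SiCD_A pool 3 (0.0125). LOC105173409, LOC105178540 and LOC105178617 had estimates from -0.14 to 0.12 that did not pass.

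Methyltransferases cap hydroxyl groups of the rings, and 1 of 5 was higher and 1 lower. The largest change of any tested member was in flavonoid 3',5'-methyltransferase LOC105156703 (linkage group 2, 18316197 to 18316247), from a low level. It had 29, 14 and 11 counts in SiCD_A and 46, 61 and 60 in SiCD_B, or 0.265 ± 0.124 and 0.703 ± 0.0989 CPM. The log2 fold change was 1.39 (SE 0.35, adjusted p = 0.0181), and the call was lost with SiCD_A pool 2 (0.0669) or SiCD_B pool 2 (0.0613) or 3 (0.0594) left out.

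On linkage group 8, which carries the allele, 3 neighbouring methyltransferase-like genes lie about 7.48 to 7.50 Mb from KAN1. LOC105168404 (12538775 to 12538825) had 18.7, 18.6 and 14.9 CPM in SiCD_A and 12.8, 12.4 and 15.7 CPM in SiCD_B, and is the only called member whose pools overlapped. It fell by 0.36 on the log2 scale (SE 0.12, adjusted p = 0.0483). The call ended when SiCD_A pool 1 (0.144) or 2 (0.142) or SiCD_B pool 1 (0.126) or 2 (0.158) was left out, and with library size alone (0.0675). LOC105168406 and LOC105168407 beside it had estimates of -0.24 and -0.16 and did not pass. Flavone 3'-O-methyltransferase 1 (LOC105179510) had 27.8 ± 1.82 and 27.1 ± 4.76 CPM (interval of the log2 fold change -0.32 to 0.25).

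Of the 14 genes with isoflavone names, 1 was called. All 4 reductase-like genes had estimates between -0.11 and -0.03 and none passed in edgeR, DESeq2 or limma-voom (0 with an unadjusted p below 0.05). LOC105169653, the best covered, had 24.4 ± 0.846 and 22.6 ± 1.39 CPM (interval of the log2 fold change -0.25 to 0.03). The 10 hydroxylases and dehydratases had estimates from -0.46 to 0.50, with a median size of 0.26 against 0.17 over all tested genes, and 1 was called. The 2-hydroxyisoflavanone dehydratase gene LOC105169561 (linkage group 8, 19751573 to 19752517, 14.7 Mb from KAN1) fell from 19.1, 20.0 and 19.4 CPM to 16.0, 12.1 and 14.6 CPM. With no overlap, its log2 fold change was -0.46 (SE 0.10, adjusted p = 0.00819), under all settings. The gene next to it, LOC105169560, had the opposite sign, 0.29 (SE 0.16), with 1.50 ± 0.160 and 1.85 ± 0.135 CPM, and did not pass (adjusted p = 0.207). A run of 5 isoflavone hydroxylase-like genes on linkage group 2 summed to 8.63 ± 0.561 and 8.73 ± 0.281 CPM, and none of them was called. The remaining 3 dehydratase-like genes, LOC105156977, LOC105157076 and LOC105172970, had estimates from -0.09 to 0.25.

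Among regulators, 2 of the 3 genes named ANTHOCYANINLESS 2 were higher, beside 16.5% of all tested genes, and 1 of these calls held under all settings. In Arabidopsis this homeobox factor acts in the epidermis and sub-epidermis, and its loss lowers anthocyanin. LOC105160506 (linkage group 4, 10142686 to 10142883) had 14.3, 15.6 and 13.2 CPM in SiCD_A and 20.5, 23.9 and 19.7 CPM in SiCD_B. It rose 1.48-fold (log2 fold change 0.57, SE 0.09, adjusted p = 0.00232), with separate groups and under all settings. LOC105172078 rose by far less, from 108, 111 and 113 CPM to 119, 120 and 125 CPM (log2 fold change 0.13, SE 0.04, adjusted p = 0.0334). That call was lost with SiCD_A pool 1 (0.139) or 2 (0.095) or SiCD_B pool 2 (0.073) or 3 (0.113) left out and with upper-quartile factors (0.0522).

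The ANTHOCYANINLESS 2 gene LOC105173189 had 76.3 ± 3.23 and 73.1 ± 2.17 CPM (interval of the log2 fold change -0.17 to 0.04) and did not pass. These genes belong to the same homeobox class as the epidermal markers above, of which 5 of 7 were higher. TRANSPARENT TESTA GLABRA 1 (LOC105160272), the WD40 protein that in Arabidopsis joins MYB and bHLH factors to switch on late pigment genes, had 14.9, 17.0 and 20.0 CPM in SiCD_A and 15.5, 15.2 and 15.7 CPM in SiCD_B. The SiCD_B pools lay within the range of the SiCD_A pools (log2 fold change -0.16, SE 0.10, adjusted p = 0.261).

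By position, 38 members lay in 12 runs of 2 or more members less than 200 kb apart. The row of glucosyltransferases on linkage group 16 was the only run with more than 1 called member. No member lay within 1 Mb of KAN1. Of the 7 members on linkage group 8, 2 were called, LOC105168404 and LOC105169561, both lower and both over 7 Mb from KAN1.

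Outside the member rule, 47 genes were listed by product names of the steps before chalcone synthase and of known regulators, and 44 were tested. Of these 9 were higher and 5 lower, 31.8% in all, near the background. Phenylalanine ammonia-lyase, the first step, had 3 genes with estimates between -0.12 and -0.03, and none passed in edgeR, DESeq2 or limma-voom (0 with an unadjusted p below 0.05). The best covered, LOC105174307, had 123 ± 15.4 and 117 ± 9.16 CPM. Cinnamate 4-hydroxylase, the next step, was lower for 3 of 6 genes, beside 14.1% of all tested genes. Summed over the 6 genes, the SiCD_A pools had 70.5 to 80.8 CPM and the SiCD_B pools 71.5 to 81.4 CPM. The 3 lower genes lie near each other on linkage group 9 and were at low levels. LOC105170464 fell from 1.95 ± 0.332 to 0.559 ± 0.0805 CPM (log2 fold change -1.80, SE 0.22, adjusted p = 0.000672). LOC105170463 fell from 1.93 ± 0.114 to 1.15 ± 0.145 CPM and LOC105170465 from 1.48 ± 0.264 to 0.832 ± 0.215 CPM. The call of LOC105170465 was lost with SiCD_A pool 1 or 2 or SiCD_B pool 1 or 2 left out (0.0712 to 0.107). The better covered LOC105170468 had 41.0 ± 3.40 and 42.7 ± 3.64 CPM and LOC105163854 30.0 ± 1.91 and 32 ± 1.59 CPM, and neither passed. The third step, 4-coumarate--CoA ligase, was higher for 1 and lower for 1 of 14 genes and ligase-like genes. LOC105155681, 4-coumarate--CoA ligase 1, rose from 8.96 ± 0.843 to 17.5 ± 1.11 CPM (log2 fold change 0.96, SE 0.09, adjusted p = 0.000215). Others named as the ligase itself did not pass. LOC105166823 had 34.2 ± 3.56 and 35.5 ± 1.99 CPM (adjusted p = 0.636). LOC105158263 had 26.5 ± 3.46 and 27.6 ± 0.175 CPM (adjusted p = 0.65), and LOC105165431 had an adjusted p of 0.164. The ligase-like gene with the highest level, LOC105170261, did not pass either. Acetyl-CoA carboxylase 1-like (LOC105165943), which makes malonyl-CoA, had 357 ± 13.2 and 331 ± 16.5 CPM (adjusted p = 0.149). Both biotin carboxyl carrier proteins of the plastid form of this enzyme had estimates of the other sign. They were listed by name, and whether they serve chalcone synthase is not known from these data. LOC105161229 went from 174 ± 5.91 to 190.2 ± 3.06 CPM (log2 fold change 0.13, adjusted p = 0.043), a call that ended whichever pool was left out (0.0718 to 0.124), with DESeq2 size factors (0.0608), with upper-quartile factors (0.063) and in the DESeq2 Wald test (0.051). LOC105157971 had an estimate of 0.22 (adjusted p = 0.0598, and 0.0211 with library size alone).

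Of the 18 tested regulators outside the rule, 7 were higher and 1 was lower, beside 16.5% higher and 14.1% lower among all tested genes. Both HY5 genes, of the light-response factor that in Arabidopsis switches on early flavonoid genes, were higher. LOC105164593 went from 10.3 ± 0.225 to 14.7 ± 0.388 CPM (log2 fold change 0.51, SE 0.06, adjusted p = 0.000713). LOC105155417 went from 11.6 ± 0.361 to 13.5 ± 0.201 CPM (log2 fold change 0.21, adjusted p = 0.033), and it did not pass when any pool other than SiCD_A pool 3 was left out (0.0526 to 0.115). Of 13 tested MYB genes, 4 were higher and 0 lower in edgeR, and these 4 are named MYB3-like or myb-related. One of the others, MYB5-like LOC105156033, had 2.72, 2.81 and 7.46 CPM in SiCD_A and 2.56, 1.84 and 1.74 CPM in SiCD_B. Its log2 fold change of -1.07 (SE 0.44) did not pass in edgeR (adjusted p = 0.119) or limma-voom and did in the DESeq2 Wald test (0.00803). SiCD_A pool 3 was far above the other pools. MYB3-like LOC105160486, of a group that includes repressors of phenylpropanoid genes, rose from 6.22 ± 0.316 to 12.4 ± 0.470 CPM (log2 fold change 0.99, SE 0.08, adjusted p = 0.00013). The myb-related genes LOC105159549, LOC105173041 and LOC105179114 rose by 0.27, 0.25 and 0.53 on the log2 scale. MYB114-like LOC105163193 had 5.08 ± 0.343 and 5.4 ± 0.4 CPM and did not pass (adjusted p = 0.56). MYB114-like LOC105158543 had 1, 0 and 1 counts in SiCD_A and 6, 6 and 16 in SiCD_B, too few for the edgeR test. The authors' deposited table gives it a log2 fold change of 3.54 with an adjusted p of 0.0419. Whether these MYB genes raise or lower flavonoid genes in sesame was not tested. Of 3 bHLH genes, 1 was higher and 1 lower. LOC105163253, a truncated basic helix-loop-helix protein A, rose from 0.98 ± 0.287 to 1.90 ± 0.270 CPM (log2 fold change 0.95, SE 0.23, adjusted p = 0.0154), but did not pass without SiCD_A pool 2 (0.0587) or SiCD_B pool 2 (0.0661). EGL1-like LOC105157923, a partner of MYB factors, fell from 66.8 ± 6.61 to 56.1 ± 4.48 CPM (log2 fold change -0.25, adjusted p = 0.0487). This call ended when any pool other than SiCD_A pool 2 or SiCD_B pool 3 was left out (0.0711 to 0.147) and with library size alone (0.125). Without SiCD_A pool 2, the genes of this list called higher numbered 5, and without SiCD_A pool 1 and SiCD_B pool 2 those called lower numbered 3 and 2.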

How the data were processed

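Per the labels' protocols, a TruSeq version 2 kit gave the libraries, sequenced in 100-base read pairs. The submitters' processing notes name STAR, HTSeq, DESeq2, SAMtools, Trim Galore and FastQC 0.11.4; roles, other versions and genome build: not given in the sources used here. Counts in the deposited files are whole reads per gene and pool with no normalization. The deposited normalized signal equals these counts divided by a single factor for each pool, as checked on its values, and was not used further. Log2 fold changes and adjusted p-values of the authors' deposited table are printed only where named as theirs. Positions are of the coding segment listed in that table, whose build is not named, and linkage groups come from RefSeq assembly S_indicum_v1.0, in which all 73 members occur.

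Counts were tested over all 6 pools with edgeR 4.0.16 in R 4.3.3 (robust quasi-likelihood fit, TMM, filterByExpr, contrast SiCD_B minus SiCD_A, no covariates), with Benjamini-Hochberg adjustment over 21009 genes and calls below 0.05. The standard error is the log2 fold change divided by the square root of F, and 95% intervals use its t quantile. The fit was tested on simulated data with independent pools and changes of at least 2-fold. That test does not cover pools that share plants or smaller changes. Intervals on counts cover counting error only. No source used here says that the counting used strand. Alternatives were leaving out each pool, pool number as a block, limma-voom (limma 3.58.1), the Wald test of DESeq2 1.42.0, scaling by upper-quartile factors, by DESeq2 size factors or by library size alone, keeping genes with 1 CPM or more in 3 pools, keeping all genes, and a limit of 2-fold. Named genes were all called members and the best covered member of each role. From the second list, up to 6 called genes by smallest p and the best covered gene of each product were named. Other genes named were chosen after their values were seen. The second list took numbered names such as myb-related protein 308 for the MYB genes it lists and the biotin carboxyl carrier proteins for acetyl-CoA carboxylase. Members and lists were chosen with earlier results of these data known. Figures were drawn with matplotlib 3.10.9.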

Additional observations from a re-analysis of the deposited data

How the results depend on the processing

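Changing the scaling, filter or test, with all 6 pools, left the members called higher at 8 to 10 and lower at 7 to 10, with 15 to 18 of the 18 called members shared. Asking for at least 2-fold left 1 higher and 0 lower. Leaving out 1 pool gave 4 to 9 members higher and 3 to 8 lower, 3919 to 5998 genes called in all against 6433, and, among early precursor and regulator genes, 5 to 10 higher and 2 to 4 lower. The fall without SiCD_B pool 2 came with fewer samples, and its further cause was not tested. Of 514 values of 37 named genes under alternatives, 449 kept direction and call, 53 lost the call, 1 gained it and 11 changed sign. The sign changes were in 5 genes that did not pass with either sign, with adjusted p of at least 0.383. With a pool left out, log2 fold changes ran from -0.08 to 0.09 for LOC105171854 (0.03 with all pools), from -0.02 to 0.12 for LOC105170468 (0.05), from -0.14 to 0.03 for LOC105174307 (-0.07), from -0.13 to 0.05 for LOC105178538 (-0.04) and from -0.18 to 0.06 for LOC105179510 (-0.03). With library size alone the last 2 were at 0.01. Pools with the same number deviated together weakly at most (correlations 0.0701, 0.00909 and 0.0565), though each pool correlated best with its own number. Whether the numbers pair the pools is not known from these values. With pool number as a replicate block 7181 genes were called, with 10 members higher and 7 lower. Under it LOC105155278 (adjusted p = 0.0593) and LOC105168404 (0.112) did not pass, and LOC105175588 (0.0431) did. No paired reading is made of this. Depth limits the 25 members below 1 CPM most, and the 7 untested ones had 22 to 51 counts over all pools.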
